A study of Mus musculus with 14 samples.

Results

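Messenger RNA from brown and white fat of mice on a high-fat diet was compared across all genes, grouped by what their products do. Brown adipose tissue (BAT) gave 4 libraries and white adipose tissue (WAT) of the perigonadal depot, the fat pad beside the gonads, gave the other 4, out of 14 in the series. Mice of both groups were C57BL/6N, 22 weeks of age, kept at ambient temperature and given high-fat food (60% of kcal from fat) for 14 weeks. No other diet is compared here. Polyadenylated RNA was sequenced from pieces of whole tissue, which hold fat cells, blood vessels, nerves, immune cells and any tissue attached to the depot. The labels number the libraries 1 to 4 in each tissue. Whether they come from different animals is not stated, so p-values measure the spread between these libraries, which may in part be technical. The deposited table has 24421 rows, 1 per gene, and 12754 had enough reads to be tested. By rules on gene symbols, 1023 rows were transcription factors, 638 were receptors, 867 were secreted factors and 925 were transporters or channels, of which 683, 344, 406 and 507 were tested.

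Brown fat burns fatty acids and glucose in mitochondria that are uncoupled by Ucp1, so that the energy leaves as heat, and it is driven by noradrenaline from sympathetic nerves. White fat of the perigonadal depot stores triglyceride in large single droplets, secretes hormones such as leptin, and gathers macrophages in obesity. Which genes a fat cell reads depends on transcription factors, what it senses on receptors, what it tells other cells on secreted factors, and what it takes up or expels on transporters and channels.

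The label check placed each library with its tissue. Ucp1, the uncoupling protein of brown fat, stood at 12526, 16277, 19939.5 and 13328 CPM in BAT, against 1.56, 0.420, 0.136 and 0.599 CPM in WAT (CPM, gene reads scaled to the library total with TMM factors). Cidea, a lipid droplet protein of brown fat, stood at 2481, 2985, 3460.4 and 1982 CPM in BAT, against 3.30, 2.63, 1.90 and 2.59 CPM in WAT. Lep, which encodes leptin, stood at 387, 325, 377 and 187 CPM in BAT, against 1334, 1612, 3059 and 1823 CPM in WAT. None of these markers overlapped between the tissues, and all 11 tested genes of the brown fat marker list were higher in BAT and all 11 of the white fat list lower.

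Depth and the makeup of the libraries differed between the tissues. Gene reads numbered 1014959 to 2335058 in BAT and 6859404 to 16091372 in WAT, and genes held 19.1% to 42.3% of all mapped reads in BAT and 71.1% to 83.0% in WAT, as computed from the size of 1 read in each column. The header names the input libraries of the tissues by different patterns, and any step that differed between them cannot be told apart from tissue. Skeletal muscle markers summed to 4936, 8841, 5143 and 64013 CPM in BAT against 623 to 774 CPM in WAT, and BAT 4 led 164 tested genes by over 4 times the next BAT library. Genes of epididymis and testis summed to 310 CPM in WAT 3, against 17.7 to 34.7 CPM in BAT and 9.67 to 17.1 CPM in the other WAT libraries. Olfactory receptor rows summed to 134.6 CPM in BAT 3. In the other BAT libraries they summed to 40.3 to 46.9 CPM, and in WAT to 18.8 to 21.2 CPM. Cut to 1014959 reads each, BAT libraries held 14309 to 15791 genes with a read and WAT libraries 14110 to 14863.

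Of the 12754 genes tested with limma, 3913 (30.7%) were higher and 4031 (31.6%) lower in BAT at a Benjamini-Hochberg adjusted p under 0.05, and 1025 (8.04%) and 1072 (8.41%) of them were called with a log2 fold change of at least 2 upward or downward. In either direction 62.3% were called. A lower level in a bulk sample cannot tell fewer cells of a type from less RNA per cell. Receptors and secreted factors were the classes tilted toward white fat. Of 344 receptors, 79 (22.97%) were higher and 190 (55.2%) lower in BAT, with a median log2 fold change of -0.97 against -0.05 over all genes tested. Secreted factors were alike, with 83 (20.4%) higher and 226 (55.7%) lower of 406 and a median of -0.96. Transporters were called more often than genes at large, with 181 (35.7%) higher and 199 (39.3%) lower of 507, and 67 in each direction passed a log2 fold change of 2. Transcription factors were called least of the 4 classes, with 199 (29.1%) higher and 132 (19.3%) lower of 683. Their median of 0.09 turned to -0.11 without TMM scaling, where 153 were higher and 186 lower. Of the 683, 349 were C2H2 zinc-finger factors outside the other families, with 79 (22.6%) higher and 44 (12.6%) lower (50 and 67 without TMM scaling). The figures of the class therefore lean on this family.

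**Figure D1:**
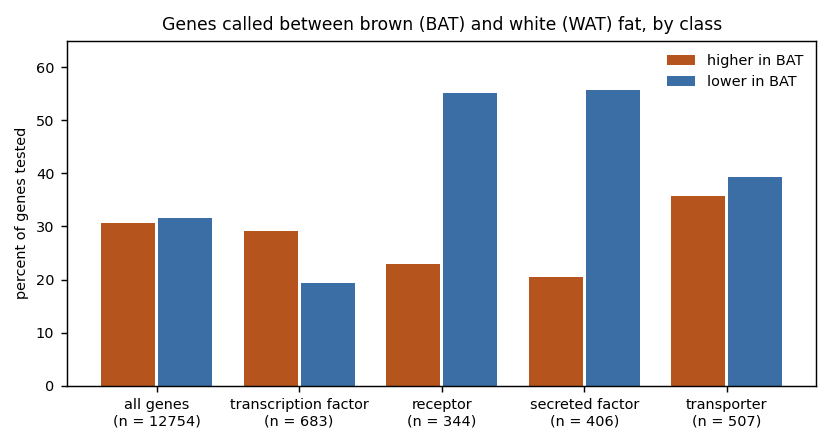
Percent of tested genes called higher (left bar) or lower (right bar) in BAT than in WAT at an adjusted p under 0.05, for all genes and for each class, with the number tested under each name. Receptors and secreted factors show 55.2% and 55.7% lower against 31.6% of all genes, and transcription factors show 19.3% lower. Of the 683 transcription factors, 349 are C2H2 zinc-finger factors outside the other families, of which 12.6% are lower.

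These counts depend on the scaling, which fixes where no change lies. Without TMM scaling the split over all genes was 3199 higher and 5024 lower, and the median gene moved by -0.21. On the authors' RPKM, which is relative to all mapped reads and so follows the low share of gene reads in BAT, the median gene moved by -1.46 and the split was 836 higher and 9478 lower. Families are therefore read below against all genes of the same scaling, and their counts on RPKM without centring are given where the majority turned round. In the main fit, each family count is to be read beside the 30.7% higher and 31.6% lower of all genes tested. In the authors' deposited table, made with edgeR, 3075 of the same genes were higher and 4581 lower in BAT, and no gene had opposite calls there and here. For the genes named below the BAT and WAT libraries did not overlap unless a sentence says so. The share of all tested genes without overlap is not given here. The steepest genes were chosen by calls kept without any single library, a choice that favours a lack of overlap. Genes outside the 6 steepest of each class and direction were named for their known roles after their values were seen.

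The classes also took different shares of the gene reads. Secreted factors took 4.24%, 3.76%, 4.39% and 4.28% of gene reads in BAT, against 8.92%, 8.89%, 8.53% and 8.44% in WAT. Receptors took 1.74%, 1.58%, 1.52% and 1.497% in BAT, against 3.54%, 3.56%, 3.43% and 3.53% in WAT. Both shares were lower in every BAT library than in any WAT library. Transporters averaged 5.88% ± 0.163 in BAT and 4.98% ± 0.217 in WAT, and transcription factors 2.38% ± 0.187 in BAT and 2.07% ± 0.1001 in WAT (SD, n = 4 each). Each of these 4 differences had a two-sided exact permutation p of 0.0286, the smallest that 70 assignments allow, and an adjusted p of 0.0429 over 6 shares. For transcription factors the difference turned to -0.06 percentage points when shares were taken of summed RPKM.

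**Figure D2:**
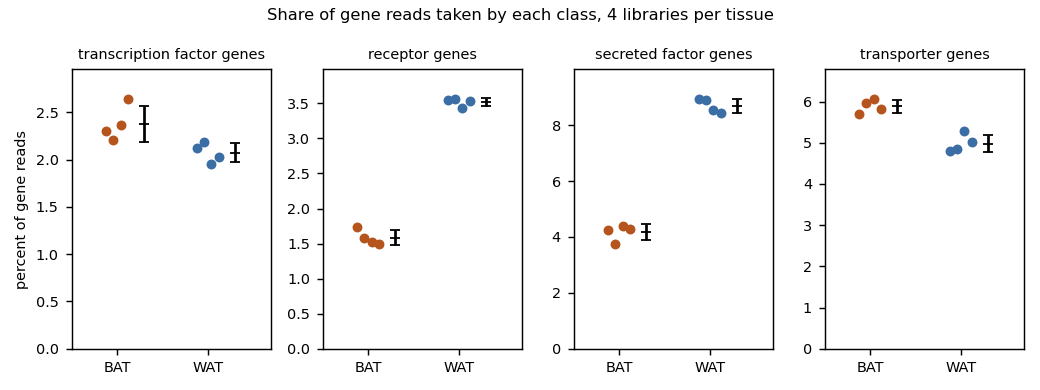
Percent of gene reads taken by the genes of each class in the 4 BAT and 4 WAT libraries (points), with the mean and SD beside them; each panel starts at 0. Secreted factor and receptor shares lie lower in all BAT libraries, transporter and transcription factor shares higher.

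Families of transcription factors differed in their split, with more members higher than lower in BAT among nuclear receptors, Hox genes and SOX factors, and more lower than higher among NF-kB and NFAT factors. Of 33 nuclear receptors, which are factors switched by hormones and lipids, 19 were higher and 2 lower in BAT, with a median of 0.82 (6 higher and 17 lower on RPKM without centring). Among those higher were Ppara, Rorb, Esrrg, Esrra, Rxrg, Nr4a2, Rarb, Pparg, Nr2f6, Thra, Nr4a1, Nr1d1, Rxrb, Nr6a1, Nr1d2, Thrb, Nr2f2 and Ppard, and Rxra was among those lower. Ppara, the fatty acid sensor that switches on fat burning, stood at 436, 487, 366 and 279 CPM in BAT, against 5.33, 6.94, 6.23 and 3.89 CPM in WAT. Every BAT library was above 250 CPM and no WAT library above 7 CPM (log2 fold change 6.01, SE 0.21, adjusted p = 9.00e-10). Its relatives moved less, with Pparg, the master factor of fat cells, at 393 ± 86.3 CPM in BAT and 103 ± 12.9 CPM in WAT (log2 fold change 1.91, SE 0.17, adjusted p = 1.17e-06). Ppard, which drives oxidation of fat in muscle, stood at 26.3 ± 4.26 CPM in BAT and 18.2 ± 2.06 CPM in WAT (log2 fold change 0.52, SE 0.17, adjusted p = 0.0208), where BAT 2 lay inside the WAT range. The Ppard call was lost when BAT 1, BAT 3, WAT 2, WAT 3 or WAT 4 was left out, with log2 fold changes of 0.40 to 0.57 over all single omissions. Esrra and Esrrg, orphan receptors that drive mitochondrial genes, had log2 fold changes of 2.81 and 3.33. Rorb stood at 9.25, 9.39, 31.5 and 11.4 CPM in BAT, against 0.752, 0.840, 0.271 and 0.200 CPM in WAT, where BAT 3, the shallowest library, was about as high as the other BAT libraries together (log2 fold change 3.83, SE 0.44, adjusted p = 9.20e-06).

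Position factors of the body axis differed in the same direction. Of 18 Hox genes, 12 were higher and 2 lower in BAT, with a median of 1.30 (2 higher and 5 lower on RPKM without centring). Those higher were Hoxa3, Hoxa4, Hoxa5, Hoxa7, Hoxb2, Hoxb3, Hoxb4, Hoxc4, Hoxc5, Hoxc6, Hoxd8 and Hoxd9, and those lower were Hoxc8 and Hoxc9. By number, which in Hox clusters follows the order along the body from head to tail, the called genes up to group 7 were all higher in BAT. Hoxa5 stood at 49.8, 64.1, 83.6 and 87.7 CPM in BAT, against 5.85, 8.51, 5.96 and 7.38 CPM in WAT, with no overlap (log2 fold change 3.25, SE 0.21, adjusted p = 7.81e-08), and it overlaps Hoxa3 and an antisense gene in the annotation. Hoxc9 lay the other way, at 0.881, 0, 5.43 and 0 CPM in BAT, against 5.15, 3.36, 2.30 and 4.29 CPM in WAT (log2 fold change -1.79, SE 0.70, adjusted p = 0.0413), and there BAT 3 was above all WAT libraries while the other BAT libraries were below them. Its call was lost when BAT 1, BAT 2, BAT 4 or WAT 2 was left out (log2 fold changes of -2.59 to -1.41 over all single omissions). Of 8 GATA and T-box factors, Tbx15, Tbx5, Gata2, Tbx2, Tbx18 and Tbx3 were higher, Trps1 was lower and Gata6 was not called (2 higher and 2 lower on RPKM without centring). Tbx15 stood at 8.81, 11.6, 14.1 and 46.2 CPM in BAT, against 0.231, 0.420, 0.271 and 0.0990 CPM in WAT (log2 fold change 4.48, SE 0.47, adjusted p = 4.60e-06), and BAT 4, the library with the muscle transcripts, was the highest by far. Leaving out any 1 library gave log2 fold changes of 3.97 to 4.71 for Tbx15. Zic1, a zinc-finger factor used as a marker of brown fat, had 88 reads over the BAT libraries and 3 over the WAT libraries, at 10.1, 12.2, 21.7 and 15.4 CPM in BAT (199.6-fold higher in BAT by pooled reads, with an exact 95% interval for counting error of 66.1 to 987). No BAT library was below 10 CPM. Zfhx4, a large homeodomain factor, stood at 34.8, 40.9, 67.3 and 74.3 CPM in BAT, against 3.94, 4.73, 3.11 and 3.59 CPM in WAT (log2 fold change 3.60, SE 0.26, adjusted p = 1.85e-07).

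No member of the SOX and TCF/LEF family was lower in BAT among 12 tested, and 9 were higher: Sox5, Sox6, Sox7, Sox9, Sox11, Sox12, Sox13, Sox17 and Sox18 (1 higher and 3 lower on RPKM without centring). Sox6 had 44.7 ± 3.30 CPM in BAT and 8.20 ± 2.12 CPM in WAT (log2 fold change 2.41, SE 0.20, adjusted p = 6.00e-07). Sox7, Sox17 and Sox18, the factors of endothelial cells, had log2 fold changes of 1.98, 1.74 and 1.93. Of 16 genes on the endothelium list 14 were higher in BAT, and the list summed to 2309 to 2718 CPM in BAT and 650.0 to 814 CPM in WAT. The list itself holds Sox17 and Sox18, so it is not separate from them. The part of endothelial content in the SOX difference was not tested. Outside this family Nfia, a factor of brown fat cells, was higher at 469 ± 139 CPM in BAT and 69.96 ± 12.8 CPM in WAT. Klf15, a regulator of amino acid and lipid use, stood at 104 ± 23.001 CPM in BAT and 18.5 ± 1.25 CPM in WAT. Foxo1, the forkhead factor held out of the nucleus by insulin, was nearly constant within each tissue at 359.5, 361, 363 and 363 CPM in BAT, against 80.4, 90.6, 85.9 and 73.8 CPM in WAT (log2 fold change 2.13, SE 0.12, adjusted p = 2.62e-08), while its relative Foxo3 was lower in BAT, at 4.41, 7.73, 5.43 and 2.01 CPM in BAT, against 27.4, 31.0, 28.7 and 23.6 CPM in WAT (log2 fold change -2.50, SE 0.32, adjusted p = 2.19e-05).

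Factors of inflammation and of macrophages were next compared. Of 10 NF-kB and NFAT factors, which carry inflammatory and calcium signals, none was higher and 7 were lower in BAT: Nfatc2, Rel, Nfatc4, Nfkb1, Nfkb2, Rela and Nfat5, with a family median of -0.81. Spi1, known as PU.1 and required for macrophages, stood at 22.5, 10.5, 10.9 and 14.1 CPM in BAT, against 176, 149, 143.9 and 181 CPM in WAT (log2 fold change -3.51, SE 0.22, adjusted p = 5.66e-08). BAT 1 had the most Spi1 of the BAT libraries, as it had of macrophage markers. The IRF and STAT family, which carries interferon and cytokine signals, was mixed, with 4 of 14 higher (Irf1, Irf3, Irf4 and Stat5a) and 6 lower (Irf2, Irf5, Irf8, Irf9, Stat3 and Stat6) and a median of -0.14 against -0.05 over all genes tested. Irf4, a factor of lymphocytes and of fat cells, averaged 18.6 ± 7.77 CPM in BAT and 6.4001 ± 0.983 CPM in WAT (log2 fold change 1.39, SE 0.28, adjusted p = 8.44e-04), a difference that turned to -0.06 on RPKM without centring. Irf5, which drives inflammatory genes in macrophages, stood at 22.5, 11.6, 6.51 and 14.7 CPM in BAT, against 113.8, 123.5, 127.9 and 153 CPM in WAT (log2 fold change -3.30, SE 0.29, adjusted p = 9.19e-07). Atf3, a stress-induced bZIP factor, stood at 28.2, 17.1, 17.4 and 32.1 CPM in BAT, against 227, 180.1, 181 and 262 CPM in WAT (log2 fold change -3.17, SE 0.22, adjusted p = 1.28e-07). Egr2, an early response factor, averaged 4.82 ± 2.35 CPM in BAT and 32.8 ± 8.04 CPM in WAT (log2 fold change -2.76, SE 0.36, adjusted p = 2.83e-05). The zinc-finger factor Zfp90 averaged 3.18 ± 2.96 CPM in BAT and 19.6 ± 4.06 CPM in WAT (log2 fold change -3.02, SE 0.68, adjusted p = 0.00229). The tissues did not overlap for any of these genes. Wt1 and Tcf21 mark the mesothelium and the mesenchyme of visceral organs. Wt1 stood at 0.440, 0.553, 3.26 and 0 CPM in BAT, against 10.5, 17.1, 6.09 and 9.87 CPM in WAT (log2 fold change -3.20, SE 0.55, adjusted p = 2.93e-04). Tcf21 had 1 read in BAT and 220 in WAT (32.3-fold higher in WAT by pooled reads, with an exact 95% interval for counting error of 5.74 to 1282). Macrophage markers were lower in BAT for 29 of 29 genes, with list sums of 1286 to 2914 CPM in BAT and 22386 to 30840 CPM in WAT, and mesothelial markers for 8 of 8 tested, with 2.21 to 8.70 CPM in BAT and 38.6 to 142 CPM in WAT. The mesothelial list itself holds Wt1. The part of macrophage and mesothelial content in these differences was not tested.

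Since Spi1 was among the steepest falls, stretches of promoters that hold its core motif are shown for genes with a log2 fold change below -2, chosen after their values were seen among those known in immune cells and with the motif wholly before the gene start. The sequences are RefSeq's, on build GRCm38.p6, 5′ to 3′ along the gene, with the motif (GAGGAAGT or, on the other strand, ACTTCCTC) in capitals.
Mmp12 (chr9:7344284-7344341, plus strand): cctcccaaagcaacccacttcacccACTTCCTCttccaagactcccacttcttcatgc
Hpgds (chr6:65144747-65144804, minus strand): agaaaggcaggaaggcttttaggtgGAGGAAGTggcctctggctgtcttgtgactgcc
Pirb (chr7:3720470-3720527, minus strand): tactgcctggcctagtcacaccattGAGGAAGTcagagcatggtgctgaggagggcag
Cd300ld (chr11:114989997-114990054, minus strand): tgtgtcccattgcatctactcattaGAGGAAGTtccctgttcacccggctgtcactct
Mmp12, a macrophage elastase, averaged 57.9 CPM in BAT and 3432 CPM in WAT (log2 fold change -5.85). Hpgds, which makes prostaglandin D in immune cells, averaged 9.06 CPM in BAT and 201 CPM in WAT (log2 fold change -4.45). Pirb, a receptor of myeloid cells, averaged 18.4 CPM in BAT and 302 CPM in WAT (log2 fold change -4.02), and Cd300ld, another, averaged 12.9 CPM in BAT and 196 CPM in WAT (log2 fold change -3.91). Of windows from 250 bases before to 50 after the start, 64 of 832 genes with a log2 fold change of at most -2 held the motif (7.69%), 16 of 797 with at least 2 (2.01%) and 325 of all 10170 (3.20%). The table of promoters covers 79.7% of the tested genes, under 80%, so these shares describe the covered genes and are void as a comparison of the lists. A match is a run of letters and not a binding site.

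**Figure D3:**
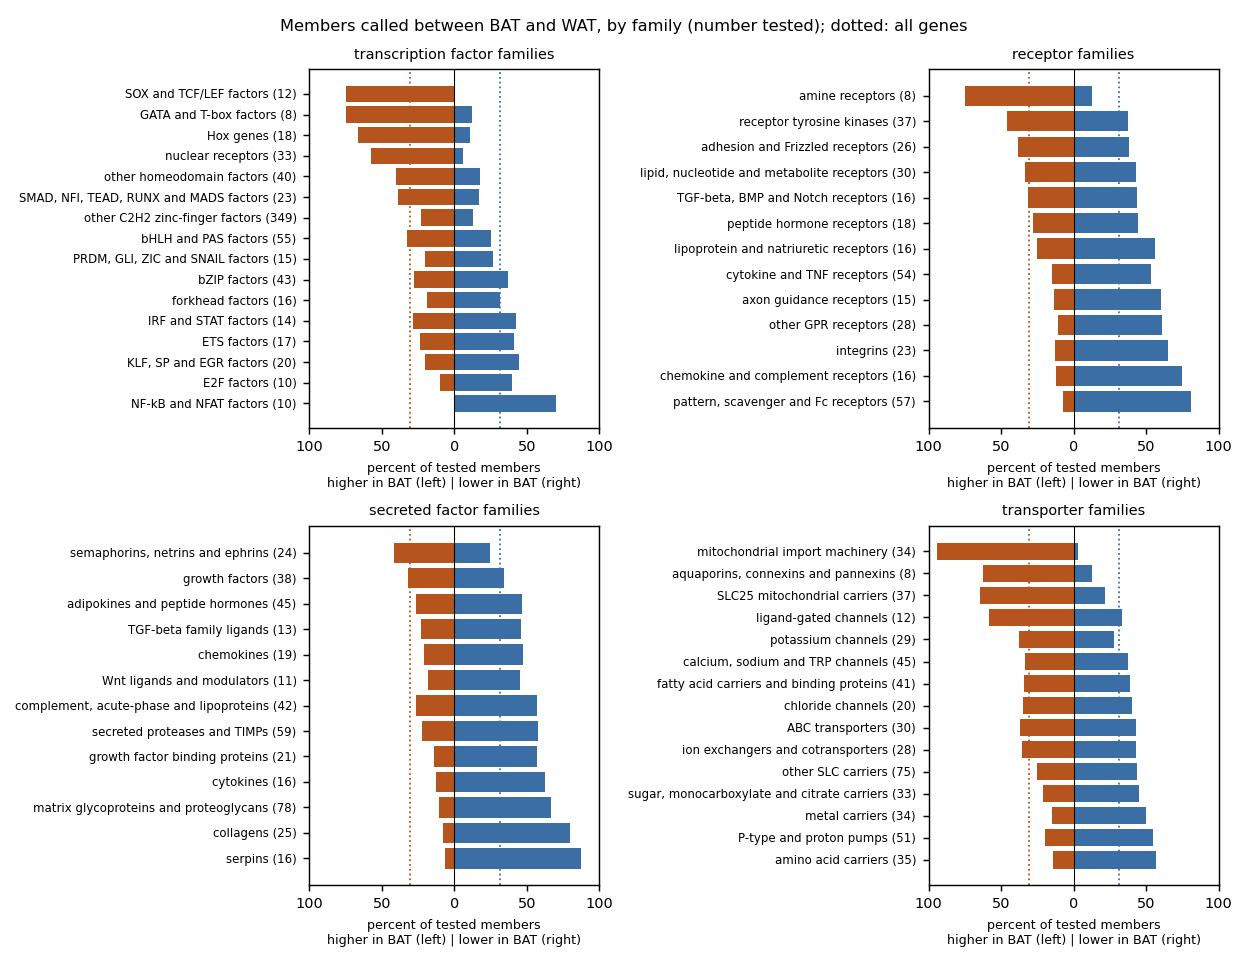
Percent of tested members called higher in BAT (bars to the left) and lower in BAT (bars to the right) for each family with at least 8 tested members, whose number is in brackets; dotted lines mark all genes, 30.7% and 31.6%. Mitochondrial import genes reach furthest left (32 of 34 higher), and pattern, scavenger and Fc receptors, collagens and serpins furthest right; on RPKM without centring the majority turned for 13 families of all sizes, nuclear receptors, Hox and SOX genes and SLC25 carriers among them.

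Receptors for noradrenaline were mostly higher in brown fat, and receptors of immune cells mostly lower. Of 8 amine receptors tested, 6 were higher in BAT, among them Htr1d, Adrb1, Adra2b, Adrb3 and Adra1a, while Htr2b was lower and Adra1d was not called (4 higher and 2 lower on RPKM without centring, so the majority held). Adrb1, the beta-1 receptor for noradrenaline, stood at 8.81, 10.5, 15.2 and 20.8 CPM in BAT, against 1.74, 1.58, 2.57 and 1.40 CPM in WAT (log2 fold change 2.58, SE 0.32, adjusted p = 2.06e-05). BAT 4 was highest and BAT 1 lowest. Adrb3, the beta receptor that is largely confined to fat cells in mice, had more reads in both tissues, at 218, 265, 166 and 203 CPM in BAT, against 34.4, 49.1, 46.4 and 26.2 CPM in WAT (log2 fold change 2.45, SE 0.21, adjusted p = 6.96e-07). Htr1d, a serotonin receptor that lowers cyclic AMP, stood at 6.61, 4.42, 13.03 and 8.03 CPM in BAT, against 0.405, 0.105, 0 and 0.0990 CPM in WAT (log2 fold change 3.65, SE 0.42, adjusted p = 9.59e-06). Htr2b, another serotonin receptor, lay the other way at 3.52, 0.553, 1.09 and 2.01 CPM in BAT, against 29.2, 32.9, 20.3 and 38.7 CPM in WAT (log2 fold change -3.89, SE 0.39, adjusted p = 2.93e-06). For each of these receptors the tissues did not overlap.

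Ntrk3, the receptor for neurotrophin-3, stood at 145, 123.7, 96.6 and 89.03 CPM in BAT, against 3.07, 1.58, 1.49 and 1.30 CPM in WAT (log2 fold change 5.63, SE 0.25, adjusted p = 4.69e-09). No BAT library came near the WAT range. Its ligand gene Ntf3 was also higher, at 6.88 ± 2.74 CPM in BAT and 1.62 ± 0.251 CPM in WAT (log2 fold change 1.73, SE 0.34, adjusted p = 7.70e-04). Lgr6, which binds R-spondins and raises Wnt signals, stood at 59.0, 72.9, 95.5 and 52.2 CPM in BAT and had 2 reads in all WAT libraries together (1470.1-fold higher in BAT by pooled reads, with an exact 95% interval for counting error of 405 to 12178). Rspo4, one of the R-spondins, stood at 14.1, 13.3, 23.9 and 24.8 CPM in BAT, against 0.405, 0.211, 0 and 0.299 CPM in WAT (log2 fold change 4.72, SE 0.35, adjusted p = 2.43e-07), so a receptor and a ligand of this pathway were both among the steepest rises of their class, whereas Rspo1 was lower in BAT at 1.41 ± 1.22 CPM in BAT and 9.65 ± 3.48 CPM in WAT (log2 fold change -2.63, SE 0.55, adjusted p = 0.00117). Cntfr, part of the receptor for ciliary neurotrophic factor, stood at 49.3, 38.7, 138 and 111.8 CPM in BAT, against 7.12, 7.57, 4.06 and 3.19 CPM in WAT (log2 fold change 3.71, SE 0.40, adjusted p = 7.48e-06). BAT 3 and BAT 4 were the highest. S1pr5, a receptor for sphingosine 1-phosphate, averaged 10.97 ± 5.76 CPM in BAT and 0.147 ± 0.133 CPM in WAT (log2 fold change 3.96, SE 0.49, adjusted p = 1.88e-05). Il15ra, which presents interleukin-15, averaged 114.2 ± 22.7 CPM in BAT and 19.3 ± 2.16 CPM in WAT (log2 fold change 2.52, SE 0.16, adjusted p = 7.85e-08). Nerve and glia markers summed to 768 to 939 CPM in BAT and 76.8 to 98.9 CPM in WAT, with 4 of 7 tested genes higher and 3 lower. Most of the BAT sum was S100b, which fat cells also express: without it, in a sum added after seeing the data, the list came to 96.5 to 119.8 CPM in BAT and 74.8 to 97.6 CPM in WAT. The part of these markers in the receptor differences was not tested.

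Receptor tyrosine kinases went both ways, with 17 (45.9%) higher and 14 (37.8%) lower of 37 (2 higher and 24 lower on RPKM without centring). Higher in BAT were the vessel receptors Flt1, Kdr, Tie1, Tek and Flt4, and also Ntrk3, Erbb4, Epha4, Fgfr3, Fgfr2, Ephb4, Ntrk2, Epha2, Insr, Met, Ryk and Igf1r. Lower were Csf1r, Ret, Egfr, Axl, Ephb2, Mertk, Pdgfra, Mst1r, Ror1, Ephb3, Flt3, Ddr2, Fgfr1 and Ddr1. Kdr, the main receptor for Vegfa, had 161 ± 43.4 CPM in BAT and 39.6 ± 9.69 CPM in WAT (log2 fold change 1.99, SE 0.23, adjusted p = 8.87e-06), and its ligand Vegfa had 478 ± 182 CPM in BAT and 59.4 ± 12.3 CPM in WAT (log2 fold change 2.94, SE 0.26, adjusted p = 9.23e-07). Erbb4 had 5.44 ± 1.74 CPM in BAT and 0.178 ± 0.0850 CPM in WAT (log2 fold change 3.09, SE 0.39, adjusted p = 2.18e-05). Nrg4, a ligand of Erbb4 made by brown fat, had 112.7 ± 30.4 CPM in BAT and 21.4 ± 5.61 CPM in WAT (log2 fold change 2.38, SE 0.23, adjusted p = 2.37e-06). Egfr had 17.02 ± 3.82 CPM in BAT and 97.96 ± 20.1 CPM in WAT (log2 fold change -2.49, SE 0.20, adjusted p = 3.86e-07). Pdgfra, which marks fat cell progenitors, averaged 28.9 ± 7.93 CPM in BAT and 124.4 ± 15.7 CPM in WAT (log2 fold change -2.13, SE 0.21, adjusted p = 2.37e-06).

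The steepest falls among receptors were not all of immune cells. Oxtr, the oxytocin receptor, stood at 2.64, 0.553, 3.26 and 0 CPM in BAT, against 137.2, 94.5, 169 and 74.3 CPM in WAT (log2 fold change -6.17, SE 0.57, adjusted p = 3.65e-06). Gpr50, an orphan relative of the melatonin receptors, had 2 reads in BAT, both in BAT 4, and stood at 37.0, 29.01, 88.0 and 47.7 CPM in WAT (150.2-fold higher in WAT by pooled reads, with an exact 95% interval for counting error of 41.5 to 1241). The others of the 6 steepest were Tlr13, Itgax, Adgre1 and Clec7a, all expressed by myeloid cells. Itgax, which encodes CD11c, stood at 19.4, 11.6, 19.5 and 12.7 CPM in BAT, against 535, 392, 449 and 545 CPM in WAT (log2 fold change -4.91, SE 0.19, adjusted p = 2.31e-09). Adgre1, which encodes F4/80, stood at 49.3, 26.0, 10.9 and 14.7 CPM in BAT, against 521, 697, 615 and 647 CPM in WAT (log2 fold change -4.82, SE 0.37, adjusted p = 8.51e-07). Tlr13, a sensor of bacterial RNA, averaged 8.22 ± 5.78 CPM in BAT and 243 ± 25.5 CPM in WAT. Clec7a, the beta-glucan receptor dectin-1, averaged 7.91 ± 7.59 CPM in BAT and 158 ± 55.6 CPM in WAT.

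Whole families of immune receptors followed. Of 57 pattern, scavenger and Fc receptors, 46 were lower and 4 higher in BAT, with a median of -2.68, and the 4 were Clec1a, Clec14a, Clec9a and Clec2d. Of 16 chemokine and complement receptors, 12 were lower and 2, Cxcr5 and Ackr3, were higher. Of 23 integrins, 15 were lower and 3, Itgb6, Itga8 and Itga1, were higher, and of 54 cytokine and TNF receptors 29 were lower and 8 higher. Csf1r, the receptor macrophages need to survive, stood at 75.8, 51.9, 35.8 and 38.2 CPM in BAT, against 574, 689, 637 and 654 CPM in WAT (log2 fold change -3.71, SE 0.21, adjusted p = 2.75e-08). C3ar1, the complement C3a receptor, stood at 30.8 ± 12.5 CPM in BAT and 554 ± 94.0 CPM in WAT (log2 fold change -4.21, SE 0.23, adjusted p = 2.17e-08), where BAT 1 had the highest of the BAT values. BAT 1 also had the highest macrophage sum of the BAT libraries, 2914 CPM. With the macrophage and lymphocyte marker genes left out of the count, an alternative chosen after seeing the data, 79 receptors were higher and 174 lower in BAT of 328. Other receptors of myeloid cells stay in this count, and the part of immune cell content was not tested.

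**Figure D4:**
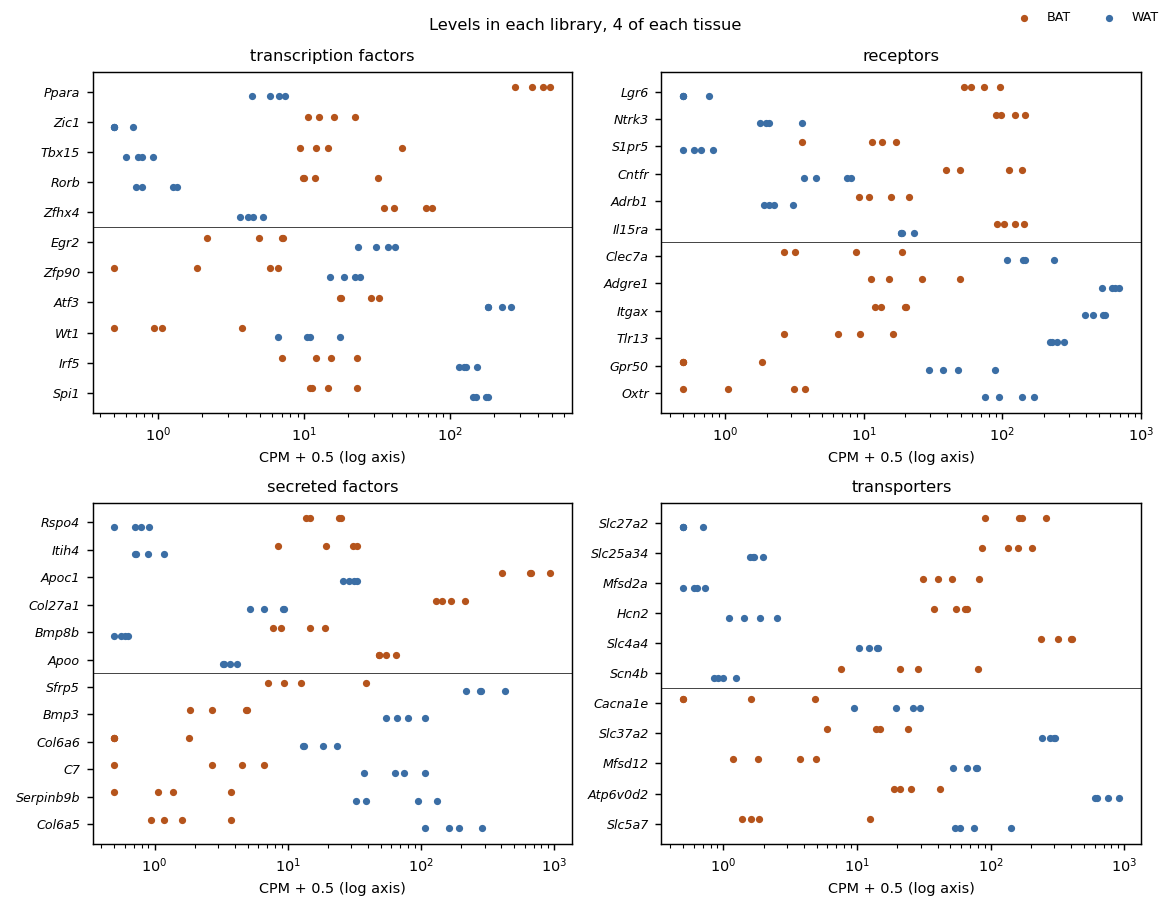
Levels in each library (CPM + 0.5, log axis) of up to 6 of the steepest rises (above the line) and falls (below it) of each class, with BAT points above WAT points for each gene. The tissues do not overlap for any gene shown, which the choice of steep and stable calls favours. Tbx15 and Scn4b are led by BAT 4, and Rorb and Slc5a7 by BAT 3.

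Secreted factors lower in brown fat were mostly matrix, protease inhibitors and immune proteins. Of 25 collagens, 20 were lower and only Col27a1 and Col13a1 higher in BAT, with a median of -1.68. Col6a5, a chain of collagen VI, stood at 0.440, 1.10, 3.26 and 0.669 CPM in BAT, against 194, 286, 107.1 and 162 CPM in WAT (log2 fold change -6.78, SE 0.41, adjusted p = 5.50e-08). Col6a6, a like chain, had 3 reads in BAT and 747 in WAT (36.6-fold higher in WAT by pooled reads, with an exact 95% interval for counting error of 12.5 to 177.8). Col6a1, Col6a2 and Col6a3, the common chains of collagen VI, were lower by less, with log2 fold changes of -2.13, -2.44 and -1.41, and so were Col1a1, Col1a2 and Col3a1, the fibrillar collagens of scar and capsule (-1.44, -1.57 and -1.81). Col27a1, a fibrillar collagen of cartilage, went against its family at 167, 143, 129 and 212 CPM in BAT, against 8.68, 8.83, 4.74 and 6.18 CPM in WAT (log2 fold change 4.44, SE 0.22, adjusted p = 1.06e-08); a microRNA gene lies within it. Of 78 matrix glycoproteins and proteoglycans, 52 were lower and 8 higher, and Spp1, or osteopontin, a product of macrophages and bone, stood at 124.7, 17.1, 20.6 and 25.4 CPM in BAT, against 309, 350.1, 163 and 366 CPM in WAT (log2 fold change -3.10, SE 0.56, adjusted p = 8.61e-04). BAT 1, the BAT library with the highest macrophage sum, was nearest to the WAT libraries.

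Of 16 serpins, 14 were lower, Serpini1 was higher and Serpinh1 was not called. Serpinb9b, an inhibitor of granzymes, stood at 0.881, 0.553, 3.26 and 0 CPM in BAT, against 94.5, 31.96, 38.4 and 130.5 CPM in WAT (log2 fold change -5.61, SE 0.60, adjusted p = 8.67e-06), and WAT itself spread over 4 times. C7, a part of the complement pore, averaged 3.10 ± 2.62 CPM in BAT and 70.3 ± 28.7 CPM in WAT (log2 fold change -4.71, SE 0.71, adjusted p = 2.29e-04). Of 19 chemokines, 9 (47.4%) were lower and Cxcl13, Ccl27a, Cx3cl1 and Cxcl14 (21.1%) were higher in BAT. Of 16 cytokines, 10 were lower and 2 higher, Tnfsf10 being the steeper of the higher ones at 29.2 ± 6.06 CPM in BAT and 8.55 ± 1.37 CPM in WAT. Counted without the macrophage and lymphocyte marker genes, 83 secreted factors were higher and 220 lower in BAT of 400.

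Signals made by fat itself differed in both directions. Bmp8b, a BMP that brown fat secretes on activation, had 70 reads in BAT and 3 in WAT, at 8.37, 7.18, 18.5 and 14.1 CPM in BAT (159-fold higher in BAT by pooled reads, with an exact 95% interval for counting error of 52.2 to 789), and it overlaps Oxct2b in the annotation. Bmp3, which opposes other BMPs, lay the other way at 2.20, 4.42, 4.34 and 1.34 CPM in BAT, against 54.5, 66.0, 106.8 and 79.6 CPM in WAT (log2 fold change -4.50, SE 0.32, adjusted p = 1.87e-07). WAT 3 was the highest. Sfrp5, a Wnt antagonist known as an adipokine, stood at 8.81, 6.63, 37.99 and 12.1 CPM in BAT, against 217, 281, 426 and 276 CPM in WAT (log2 fold change -4.45, SE 0.46, adjusted p = 1.33e-05). BAT 3 was the highest BAT library and WAT 3 the highest WAT library. Of 13 TGF-beta family ligands, Bmp8b, Bmp6 and Gdf1 were higher and Bmp3, Gdf3, Inhbb, Tgfb1, Tgfb3 and Gdf10 lower in BAT. Of 38 growth factors, 12 (31.6%) were higher and 13 (34.2%) lower, near the 30.7% and 31.6% of all genes tested. Each side held vessel factors: Vegfa and Vegfb were higher, and Figf, which encodes VEGF-D, and Angpt2 were lower. Nrtn, or neurturin, a factor that keeps nerve cells alive, stood at 7.05, 11.05, 7.60 and 12.1 CPM in BAT, against 0.116, 0.316, 0 and 0.200 CPM in WAT (log2 fold change 3.91, SE 0.36, adjusted p = 1.60e-06). Igf1 was lower at 59.6 ± 10.3 CPM in BAT and 387 ± 140.4 CPM in WAT (log2 fold change -2.64, SE 0.23, adjusted p = 8.42e-07) and Igf2 higher at 24.7 ± 7.42 CPM in BAT and 3.67 ± 1.15 CPM in WAT (log2 fold change 2.58, SE 0.28, adjusted p = 5.81e-06), while Fgf21, a hormone of fasting and cold, had 3.94 ± 0.838 CPM in BAT and 1.43 ± 0.861 CPM in WAT (log2 fold change 1.27, SE 0.38, adjusted p = 0.0114).

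Among adipokines and peptide hormones, 12 of 45 (26.7%) were higher and 21 (46.7%) lower in BAT. Angptl8, which blocks lipoprotein lipase, stood at 30.4, 39.2, 42.3 and 40.2 CPM in BAT, against 5.38, 2.21, 1.76 and 1.10 CPM in WAT (log2 fold change 3.80, SE 0.35, adjusted p = 1.35e-06), and it lies within Dock6. Lep, the leptin gene given above, had a log2 fold change of -2.60 (SE 0.28, adjusted p = 5.43e-06). Apoc1, a small apolipoprotein, stood at 406, 661, 936 and 671 CPM in BAT, against 28.1, 30.9, 32.3 and 25.4 CPM in WAT (log2 fold change 4.44, SE 0.21, adjusted p = 8.62e-09). Itih4, an acute-phase protein of liver, averaged 22.4 ± 11.4 CPM in BAT and 0.380 ± 0.216 CPM in WAT (log2 fold change 4.55, SE 0.43, adjusted p = 2.02e-06). Apoo, an apolipoprotein that also sits in mitochondrial cristae, averaged 53.6 ± 7.96 CPM in BAT and 3.11 ± 0.398 CPM in WAT (log2 fold change 3.90, SE 0.19, adjusted p = 9.11e-09), with a listed pseudogene overlapping it.

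Transporters of the mitochondrion were mostly higher in brown fat. Of 34 genes of the mitochondrial import machinery, 32 were higher and Tomm34 was lower, with a median of 1.53 (6 higher and 6 lower on RPKM without centring). Timm9, a chaperone of the space between the mitochondrial membranes, stood at 74.9, 86.7, 74.9 and 91.7 CPM in BAT, against 9.67, 10.3, 11.6 and 12.6 CPM in WAT (log2 fold change 2.84, SE 0.15, adjusted p = 1.78e-08). Tomm20, the receptor of the outer membrane, was not called and overlapped (62.9 ± 13.5 CPM in BAT and 77.3 ± 7.87 CPM in WAT). Of 37 SLC25 carriers of the inner membrane, 24 were higher and 8 lower, with a median of 1.08 (8 higher and 14 lower on RPKM without centring). Slc25a34, a carrier with no settled substrate, rose most at 85.9, 134.2, 202 and 160.0 CPM in BAT, against 1.16, 1.47, 1.08 and 1.20 CPM in WAT (log2 fold change 6.34, SE 0.25, adjusted p = 2.31e-09). BAT 3 was the highest and the WAT libraries were nearly level. Slc25a42, which carries coenzyme A, and Slc25a20, which carries acylcarnitines into the matrix, had log2 fold changes of 4.05 and 3.88. Those lower were Slc25a30, Slc25a13, Slc25a24, Slc25a10, Slc25a45, Slc25a25, Slc25a14 and Slc25a36, and Slc25a10, the dicarboxylate carrier, had 36.6 ± 7.13 CPM in BAT and 138 ± 23.7 CPM in WAT (log2 fold change -1.90, SE 0.17, adjusted p = 1.09e-06).

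Fuel carriers and binding proteins followed no single direction. Slc27a2, which activates very long chain fatty acids, stood at 89.9, 171, 261 and 161 CPM in BAT and had 2 reads in WAT (3383-fold higher in BAT by pooled reads, with an exact 95% interval for counting error of 934 to 27970.1). Of 41 fatty acid carriers and binding proteins, 14 (34.1%) were higher and 16 (39.0%) lower, against 30.7% and 31.6% of all genes tested. Relatives of Slc27a2 were lower, Slc27a1 at 169 ± 22.1 CPM in BAT and 369.6 ± 57.7 CPM in WAT (log2 fold change -1.13, SE 0.15, adjusted p = 4.55e-05) and Slc27a6 at 0.416 ± 0.292 CPM in BAT and 3.63 ± 0.901 CPM in WAT (log2 fold change -2.21, SE 0.43, adjusted p = 6.46e-04). Among 33 sugar, monocarboxylate and citrate carriers, 7 (21.2%) were higher and 15 (45.5%) lower. Slc2a4, the insulin-regulated glucose transporter GLUT4, had 515 ± 162 CPM in BAT and 36.4 ± 7.95 CPM in WAT (log2 fold change 3.77, SE 0.24, adjusted p = 6.49e-08). Slc2a1, the general glucose transporter, was lower at 22.9 ± 9.07 CPM in BAT and 39.2 ± 7.34 CPM in WAT (log2 fold change -0.83, SE 0.26, adjusted p = 0.0133), with BAT 3 inside the WAT range. Slc16a1, which carries lactate and ketone bodies, stood at 412, 499, 488 and 337 CPM in BAT, against 51.2, 63.3, 69.6 and 47.1 CPM in WAT (log2 fold change 2.90, SE 0.17, adjusted p = 3.78e-08). Amino acid carriers were lower for 20 of 35 (57.1%) and higher for 5 (14.3%), and metal carriers lower for 17 of 34 (50%) and higher for 5 (14.7%).

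Ion pumps were lower in BAT more often than higher. Of 51 P-type and proton pump genes, 10 were higher and 28 lower in BAT. Atp6v0d2, a subunit of the proton pump of lysosomes and osteoclasts, stood at 40.97, 18.2, 20.6 and 24.8 CPM in BAT, against 918, 625, 601 and 753 CPM in WAT (log2 fold change -4.82, SE 0.23, adjusted p = 8.63e-09). Mfsd2a, which carries lysophospholipids with omega-3 fatty acids, averaged 50.7 ± 22.1 CPM in BAT and 0.117 ± 0.0956 CPM in WAT (log2 fold change 6.29, SE 0.33, adjusted p = 1.72e-08). Slc4a4, a sodium bicarbonate cotransporter, averaged 339 ± 77.2 CPM in BAT and 12.3 ± 1.86 CPM in WAT (log2 fold change 4.72, SE 0.18, adjusted p = 2.31e-09). Mfsd12, a lysosomal carrier, was lower at 2.42 ± 1.73 CPM in BAT and 68.2 ± 12.4 CPM in WAT, and so was Slc37a2, a phosphosugar carrier of macrophages, at 14.1 ± 7.33 CPM in BAT and 278 ± 28.2 CPM in WAT.

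Potassium channels held steep changes on both sides. Of 29 tested, 11 (37.9%) were higher and 8 (27.6%) lower, against 30.7% and 31.6% of all genes tested (9 higher and 18 lower on RPKM without centring). By a log2 fold change of at least 2, 10 were higher and 6 lower, against 8.04% and 8.41% of all genes tested. Among those higher were Hcn2, Kcnj11, Kcnk3, Kcnj12, Kcna7, Kcna1, Kcna2, Kcna5, Kcnj8 and Kcnn1. Hcn2, a pacemaker channel opened by cyclic AMP, stood at 37.0, 54.1, 64.04 and 66.3 CPM in BAT, against 0.926, 1.37, 2.03 and 0.599 CPM in WAT (log2 fold change 5.05, SE 0.30, adjusted p = 3.87e-08). All BAT libraries were well above WAT. A stretch of its promoter from RefSeq, on build GRCm38.p6, is shown because it holds the site of the ERR factors named above, in capitals (TCAAGGTCA or, on the other strand, TGACCTTGA).
Hcn2 (chr10:79716441-79716499, plus strand): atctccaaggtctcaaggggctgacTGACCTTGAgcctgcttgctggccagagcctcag
Of the covered promoters 6 of 797 with a log2 fold change of at least 2 held this site, 3 of 832 with at most -2 and 28 of all 10170 (0.275%). Of these 28 genes 11 were called higher and 10 lower in BAT, with a median log2 fold change of -0.07. As for the motif of Spi1, these shares are void as a comparison of the lists, and a match is not a binding site. Kcnk3, a leak channel that limits depolarisation of brown fat cells, had 614 ± 158 CPM in BAT and 36.2 ± 7.96 CPM in WAT (log2 fold change 4.05, SE 0.21, adjusted p = 1.59e-08). Kcnj11, a pore of the ATP-sensitive channel, had 4.85, 11.05, 9.77 and 20.1 CPM in BAT and no read in WAT, which puts it at least 169-fold higher (floor of 3 reads over the WAT group). Scn4b, a sodium channel subunit, stood at 7.05, 28.2, 20.6 and 80.3 CPM in BAT, against 0.348, 0.736, 0.407 and 0.498 CPM in WAT (log2 fold change 4.64, SE 0.56, adjusted p = 1.56e-05). Cacna1e, a calcium channel, averaged 1.36 ± 2.05 CPM in BAT and 20.8 ± 8.91 CPM in WAT (log2 fold change -4.05, SE 0.67, adjusted p = 2.21e-04). Clic5, a chloride channel relative at the cell cortex, had 264 ± 56.3 CPM in BAT and 11.2 ± 2.33 CPM in WAT (log2 fold change 4.50, SE 0.19, adjusted p = 3.90e-09). P2rx5, an ATP-gated channel of brown fat cells, averaged 60.2 ± 8.75 CPM in BAT and 3.54 ± 0.490 CPM in WAT (log2 fold change 3.91, SE 0.19, adjusted p = 8.22e-09). Kcnj12, Kcna7 and Scn4b are also expressed in muscle, and Slc5a7, the choline transporter of nerve endings, was lower in BAT at 0.881, 1.10, 11.9 and 1.34 CPM in BAT, against 74.1, 58.0, 142 and 53.9 CPM in WAT (log2 fold change -4.84, SE 0.64, adjusted p = 8.38e-05), with BAT 3 the highest of the BAT libraries.

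The dominant transcripts were ranked per exon length by the authors' RPKM, among genes with exons of at least 300 bases. Fabp4, the fatty acid carrier of fat cells, ranked 1 in both tissues, at 7824 ± 2695 RPKM in BAT and 10302 ± 847 RPKM in WAT. As a share of gene reads Fabp4 lay the other way, at 1.49%, 1.62%, 1.74% and 1.23% in BAT. In WAT it took 0.863%, 0.784%, 0.883% and 0.795% of gene reads, so its direction depends on the scale. Ucp1 ranked 2 in BAT, at 2798 ± 755 RPKM in BAT and 0.336 ± 0.280 RPKM in WAT. The rest of the 15 highest in BAT were Cox8b, Gnas, Atp5b, Cox4i1, Aldoa, Hbb-b1, Hbb-bs, Dbi, Cox7a1, Uqcrq, Cox6a1, Cox6b1 and Fth1, of which 7 encode parts of the respiratory chain or ATP synthase. Cox8b and Cox7a1, subunits of cytochrome c oxidase found in heart, muscle and brown fat, ranked 3 and 11 in BAT and 4835 and 7274 in WAT. In CPM, Cox8b stood at 2199.9, 2390.2, 2742 and 2334 CPM in BAT, against 6.77, 4.52, 3.93 and 4.78 CPM in WAT (log2 fold change 8.80, SE 0.16, adjusted p = 4.80e-12). Gnas, the G protein subunit that couples beta receptors to cyclic AMP, stood at 6175, 7441, 11808 and 9450.3 CPM in BAT, against 899, 927, 839 and 917 CPM in WAT (log2 fold change 3.24, SE 0.20, adjusted p = 5.27e-08). BAT libraries spread more than WAT libraries, which were nearly level. Hbb-b1 and Hbb-bs are near-identical globin genes between which reads cannot be split with certainty, and BAT 2 led them. The erythroid and platelet list summed to 3383, 10123, 4184 and 3731 CPM in BAT and 776 to 1302 CPM in WAT, and its part in the globin ranks was not tested.

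In WAT the 15 highest were Fabp4, Ftl1, Fth1, Ctsd, Actb, B2m, Psap, Tmsb4x, Apoe, Lyz2, Rn45s, Lgals3, Car3, Vim and Sepp1. Ftl1 and Fth1, the ferritin chains that store iron, differed, with Ftl1 at 1752, 1492, 1676 and 1834 CPM in BAT, against 4256, 5318, 5361 and 7839.9 CPM in WAT (log2 fold change -1.72, SE 0.19, adjusted p = 8.12e-06) and Fth1 overlapping between the tissues and not called (log2 fold change -0.45, SE 0.21, adjusted p = 0.0747). Ctsd, a protease of lysosomes, had 1780.3 ± 290.2 CPM in BAT and 6662 ± 911 CPM in WAT (log2 fold change -1.91, SE 0.17, adjusted p = 1.43e-06). Psap, the precursor of lysosomal saposins, had 1434 ± 268 CPM in BAT and 7105 ± 1496 CPM in WAT (log2 fold change -2.30, SE 0.20, adjusted p = 8.59e-07). Lyz2, the lysozyme of macrophages, had 241 ± 139 CPM in BAT and 2826 ± 379 CPM in WAT (log2 fold change -3.71, SE 0.31, adjusted p = 8.44e-07). Lgals3, or galectin-3, averaged 329 ± 142 CPM in BAT and 2971 ± 718 CPM in WAT (log2 fold change -3.26, SE 0.29, adjusted p = 1.16e-06). Rn45s, the ribosomal precursor, was not called and overlapped (log2 fold change -0.37, SE 0.28, adjusted p = 0.26). The 100 most abundant genes of BAT and of WAT shared 27, which is 27% of either list. Secreted factors made up 4 of the 100 in BAT and 15 of the 100 in WAT, and transporters 4 in each. No transcription factor was among them in either tissue.

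**Figure D5:**
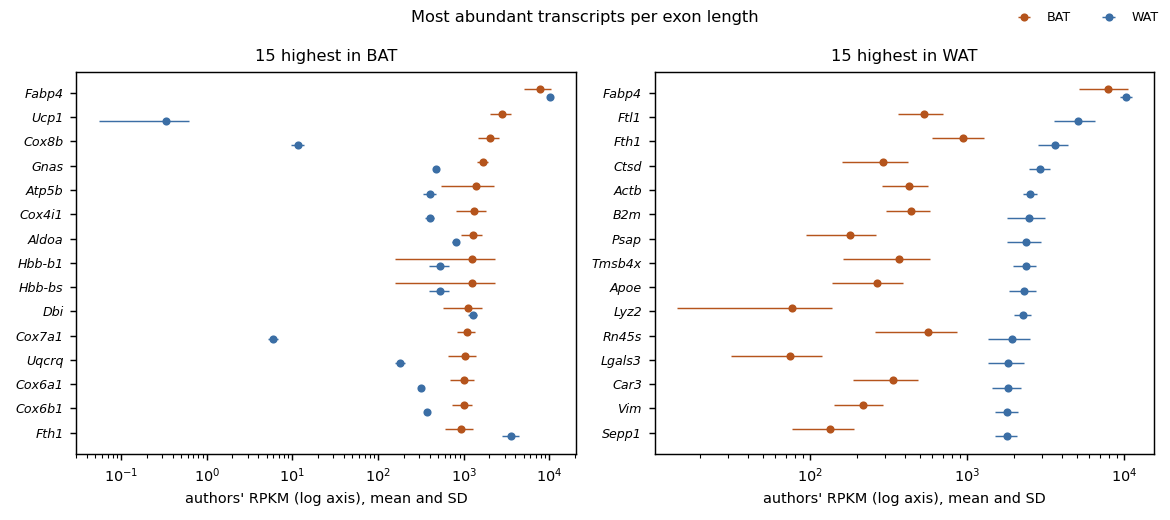
Authors' RPKM (log axis, mean and SD of 4 libraries) of the 15 highest genes of BAT (left panel) and of WAT (right panel), BAT above WAT for each gene; an SD as large as its mean is drawn upward only. Ucp1, Cox8b and Cox7a1 stand apart most on the left, and Lyz2 and Lgals3 on the right; on this scale the median gene had a log2 fold change moved by -1.46.

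How far the reads gathered in few genes was compared next. The 10 highest genes took 8.96% ± 0.886 of gene reads in BAT and 8.22% ± 0.534 in WAT (SD, n = 4 each, two-sided exact permutation p = 0.171), and the 100 highest took 26.3% ± 1.60 in BAT and 24.3% ± 0.677 in WAT (p = 0.0857 by the same exact test, adjusted p = 0.103). Neither difference passed the threshold. In a count that was not tested, 502 to 615 genes made up 50% of the gene reads in BAT, against 727 to 789 in WAT, with no overlap. On summed RPKM, both shares were higher in BAT with adjusted p = 0.0343 by the exact permutation test (differences of 1.97 and 4.95 percentage points).

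Steep changes also lay outside the 4 classes. S100b, a calcium-binding protein of glia and fat cells, stood at 728, 839.6, 672 and 708 CPM in BAT, against 2.89, 1.998, 1.90 and 1.30 CPM in WAT (log2 fold change 8.22, SE 0.18, adjusted p = 2.83e-11). BAT 2 was the highest BAT library and WAT 1 the highest WAT library. Aspg, an asparaginase, averaged 326 ± 163 CPM in BAT and 1.05 ± 0.529 CPM in WAT (log2 fold change 7.65, SE 0.32, adjusted p = 3.86e-09). Cpn2, a subunit of a plasma carboxypeptidase, had 418 reads in BAT and 2 in WAT (1422-fold higher in BAT by pooled reads, with an exact 95% interval for counting error of 391 to 11784). A930016O22Rik, a transcript of no known product, stood at 130.4, 192, 74.9 and 1609 CPM in BAT, against 0.0574, 0.105, 0.136 and 0.0990 CPM in WAT, but it overlaps Ckm, the muscle creatine kinase, and follows BAT 4. On the other side Pik3ap1, an adaptor of immune cells, stood at 1.32, 1.66, 2.17 and 0 CPM in BAT, against 93.1, 106.4, 101 and 98.3 CPM in WAT (log2 fold change -6.05, SE 0.42, adjusted p = 1.66e-07). Cers6, a ceramide synthase, stood at 3.08, 0, 1.09 and 0 CPM in BAT, against 43.2, 35.8, 42.9 and 36.4 CPM in WAT (log2 fold change -5.19, SE 0.54, adjusted p = 4.82e-06). Qpct, which closes the ends of chemokines and hormones, averaged 3.26 ± 1.72 CPM in BAT and 125.6 ± 23.6 CPM in WAT. Tm4sf19 averaged 0.825 ± 0.326 CPM in BAT and 44.6 ± 18.99 CPM in WAT. Vsig8 averaged 1.35 ± 1.18 CPM in BAT and 56.7 ± 15.3 CPM in WAT. Stac2, an adaptor of calcium channels, had 1 read in BAT and 1636 in WAT (240.4-fold higher in WAT by pooled reads, with an exact 95% interval for counting error of 43.1 to 9500.0).

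Some genes had reads in 1 tissue only. With at least 10 reads in all, 31 genes had none in WAT and 477 none in BAT, the shallower tissue, and 16 and 233 of these had a read in every library of their tissue. Among those absent from WAT, Csrp3 and Smtnl1, of striated muscle, stood at 4.41, 17.7, 16.3 and 372 CPM and 3.08, 7.18, 5.43 and 104 CPM in BAT, most of it in BAT 4. Among those absent from BAT, the mesothelial genes Upk3b, Msln and Krt19 had reads in all WAT libraries, with Upk3b at 10.3, 19.4, 4.60 and 14.8 CPM, at least 26.6-fold higher in WAT (floor of 3 reads over the BAT group). Prm1, Tnp1 and Ldhc, of sperm cells, came almost wholly from WAT 3, with Prm1 at 0, 0, 58.1 and 0.599 CPM.

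Some of the steep changes lay side by side on the chromosomes. Counting runs of 3 or more tested neighbours that all passed a log2 fold change of 2 the same way, 15 runs were higher in BAT and 31 runs lower. They held 4.78% of the 1025 genes called with such a change upward and 10.35% of the 1072 downward, and some runs are overlapping genes or near-identical copies. The longest of separate genes on the authors' mm9 build were 6 Ms4a genes of immune cells at chr19:11395529-11679294 (log2 fold changes of -4.29 to -2.42) and 5 genes of the Cd300 cluster at chr11:114751355-114909609 (-4.40 to -3.16). A run of 6 Pira and Pirb genes on chromosome 7 holds near-identical copies, and a run of 7 Ugt1a rows on chromosome 1 shares exons, so neither counts as independent genes. In BAT, the neighbours Gys2, Ldhb and Kcnj8 on chromosome 6, which encode liver glycogen synthase, a lactate dehydrogenase chain and a potassium channel, were higher by 2.57 to 5.37 on the log2 scale, and Hoxa4, Hoxa5 and Mira on the same chromosome by 2.08 to 3.25.

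Gene type and length moved with the calls too. Of 342 noncoding RNA rows tested, 166 (48.5%) were higher and 39 (11.4%) lower in BAT, and the olfactory receptor rows also summed higher there, as given above. With tested genes cut into 4 equal sets by exon length, in the shortest set (61 to 1777 bases), 44.8% were higher and 20.5% lower in BAT, and in the longest (4258 to 83436 bases) 22.5% were higher and 38.9% lower. Cytosolic ribosomal protein genes, which are short, did not follow, with 17 of 95 higher, 22 lower and list sums of 20484 to 26049 CPM in BAT and 21979 to 26627 CPM in WAT. The part of library makeup in the patterns of gene type and length was not tested.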

How the data were processed

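Polyadenylated RNA of 4 BAT and 4 WAT libraries was sequenced from a stranded kit, per the labels' protocols. The authors deposited 1 table of gene reads scaled to a common depth (unit signal, scaled counts over exons counted with HOMER on build mm9, per the file headers) with log2 fold changes and p-values from edgeR, and 1 table of RPKM relative to all mapped reads, per the file headers. The submitters' processing notes also name STAR; whether counting used strand is not given in the sources used here, so antisense and overlapping genes may share reads. Each scaled column steps by what 1 read is worth, so whole reads could be recovered: of the values worth at most 1000 reads, 100% lay within 0.1 of a whole number. The fixed design foresaw values of this kind, and the count test on those reads is an alternative.

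Scaled counts were divided by each library's gene total and TMM factors (edgeR 4.0.16) to give CPM. Genes were kept by filterByExpr on recovered reads (minimum count 10, minimum total 15), and log2(CPM + 0.5) was fitted with limma 3.58.1 (trend and robust variance, R 4.3.3) on the 8 libraries, without covariates, with Benjamini-Hochberg adjustment over 12754 genes. Fold changes on this scale understate those of low genes. Shares of reads were tested by exact permutation over 70 assignments. Intervals and floors (3 reads over a group) cover counting error only, since reads without molecular identifiers are not independent molecules. The fit was tested on simulated data. Classes and families come from rules on gene symbols, and 3 genes belong to more than 1 class; the members, families and marker lists were chosen with earlier results of these data known.

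Named were, in each class and direction, the 6 called genes with the largest log2 fold change that kept their call without any single library, with at least 10 CPM in the higher tissue, muscle markers and genes described before left out; the same for 1 gene per family; the 15 highest by RPKM in each tissue; and 6 genes per tissue with no read in the other. Other genes were named for their known roles after their values were seen. Some genes that these rules name are not reported here. Promoters came from RefSeq's table on GRCm38.p6. Alternatives were edgeR, DESeq2 1.42.0, other scalings, pseudocounts and filters, RPKM with a pseudocount of 0.1, a replicate block, omission of each library and omission of marker genes.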

Additional observations from a re-analysis of the deposited data

Results flagged for a closer look

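In 260 groups of 4 libraries, one per named gene, share or marker list and tissue, 27 values stood apart from the other 3 by more than Dixon's 95% limit. For independent values with a normal spread chance gives about 1 in 20 groups, a rate that need not hold here. For Zic1, Lgr6 and Slc27a2 in WAT and Gpr50 in BAT, the other libraries had no read. The library with reads then stood apart whatever its value. The 27 are given as values, and their causes were not tested.

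BAT 4 held 6 of them. Skeletal muscle markers summed to 64013 CPM there and to at most 8841 CPM in the other BAT libraries. Csrp3 stood at 372 CPM in BAT 4, Smtnl1 at 104 CPM, A930016O22Rik at 1609 CPM and Tbx15 at 46.2 CPM, against at most 17.7, 7.18, 192 and 14.1 CPM in the other BAT libraries. Gpr50 had 1.34 CPM in BAT 4 and no read in the others.

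BAT 3, the shallowest library, held 5. Olfactory receptor rows summed to 135 CPM, Rorb stood at 31.5 CPM, Slc5a7 at 11.9 CPM, Hoxc9 at 5.43 CPM and Wt1 at 3.26 CPM. In the other BAT libraries these were at most 46.9, 11.4, 1.34, 0.881 and 0.553 CPM.

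BAT 1 was highest for the macrophage sum (2914 CPM), for C3ar1 (49.3 CPM) and for Spp1 (124.7 CPM), against at most 1537, 26.1 and 25.4 CPM in the other BAT libraries. BAT 2 was highest for the erythroid and platelet sum, at 10123 CPM.

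Among WAT libraries, WAT 3 stood apart for the epididymis and testis sum (310 CPM), Prm1 (58.1 CPM), Fgf21 (2.71 CPM) and Lgr6 (0.271 CPM). WAT 4 stood apart for the 100 most abundant genes (25.3% of gene reads), Ctsd (8011 CPM), Nrg4 (13.1 CPM, the lowest WAT value) and Slc27a2 (0.200 CPM). WAT 1 did so for Ntrk3 (3.07 CPM), Il15ra (22.5 CPM) and Zic1 (0.174 CPM), and WAT 2 for Ntf3 (2.00 CPM).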

How the results depend on the processing

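Depth limits the low genes most, since 1 read is worth more CPM in the BAT libraries, and the share of mapped reads in genes differed between the tissues without overlap, so any scaling to all mapped reads moves every gene. The tissue, the naming of the input libraries and the depth cannot be told apart.

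On RPKM without centring, 836 genes were higher and 9478 lower in BAT; transcription factors split 30 to 508, transporters 53 to 337, and 13 receptors and 26 secreted factors were higher. The median of all genes moved by -1.46 under this scaling, by -0.21 without TMM, by -0.21 without a filter and by 0.11 with RPKM centred on library medians. Relative to it, the medians of 2 of 57 families changed side on RPKM of either kind, and those of 2 others without BAT 4 and WAT 3. The latter were bHLH and PAS factors, at 0.07 with all libraries and -0.04 without BAT 4 and WAT 3, and ion exchangers and cotransporters, at 0.08 and -0.06. No family median did so without TMM, with DESeq2 size factors or with the replicate block. By the side with more calls, 4 families turned without TMM, 3 on RPKM centred on library medians and 13 on RPKM without centring. Leaving out BAT 4 and WAT 3 turned 1 family this way, and DESeq2 size factors and the replicate block turned none. Families were not counted without a filter. Without TMM scaling the split was 3199 higher and 5024 lower and with RPKM centred 4263 and 3531, and transcription factors were higher in 22.4% and lower in 27.2% without TMM scaling. edgeR called 4070 higher and 4022 lower, and DESeq2 4067 and 4064. Leaving out BAT 4 and WAT 3 together, chosen after seeing the data, left 3684 higher and 3833 lower, with transcription factors at 171 and 131 of 703.

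Leaving out 1 library at a time gave 3332 to 3996 genes higher and 3668 to 4453 lower, with every class count within 1.5 times its full value. The differences in shares of reads then lay at 0.217 to 0.362 percentage points for transcription factors, -1.98 to -1.90 for receptors, -4.61 to -4.39 for secreted factors, 0.842 to 1.00 for transporters, 0.340 to 1.01 for the 10 highest genes and 1.43 to 2.52 for the 100 highest. For the 4 classes the adjusted exact p then ran from 0.0429 to 0.0857, where 3 libraries against 4 allow fewer assignments, for the 10 highest genes from 0.114 to 0.4 and for the 100 highest from 0.0686 to 0.206. As shares of summed RPKM the difference was -0.0608 for transcription factors, 1.97 for the 10 highest genes and 4.95 for the 100 highest.

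Whether equal replicate numbers mark the same animal is not stated. The deviations of same-numbered libraries correlated at -0.04, -0.00, -0.02 and 0.07, and those of unlike-numbered libraries at -0.20 to 0.19. These values cannot settle whether the libraries are paired, since tissues of 1 animal need not deviate together. With the replicate block, 3762 genes were higher and 3895 lower in BAT, and the paired exact test, which cannot reach the threshold, gave an adjusted p of 0.188 for share differences of 0.304 (transcription factors), -1.93 (receptors), -4.53 (secreted factors) and 0.901 (transporters).

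Of 4195 values of 202 named genes under the alternatives, 4138 were labelled the same, 36 lost the call and 13 gained one. Another 8 changed sign with a call in the main fit, the alternative or both. The same means on the same side of the threshold, or without an adjusted p in the alternative. Changes of sign where neither fit had a call were not counted. The 8 were all on RPKM without centring: Erg (-0.10), Irf4 (-0.06), Robo4 (-0.20), Vldlr (-0.029), Slc30a9 (-0.31), Fabp4 (-0.46), Dbi (-0.34) and Ppard (-0.98).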
